A study of Mus musculus with 6 samples.

Results

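The CD47-SIRPα axis and the Fc receptors were described here through 9 genes: Cd47, Sirpa, Fcgr1, Fcgr2b, Fcgr3, Fcgr4, Fcer1g, Pirb and Lilrb4a. They were taken by symbol from the gene list of the deposited matrices, where each of the 9 symbols named a single row among 22623 genes in all 6 libraries. The libraries held RNA of single nuclei (snRNA-seq) from frozen tumors that grew for 24 days under the skin after injection of TC1, a line of mouse lung epithelial tumor cells. All host mice were MCT2loxP/loxP; Cre+ on a C57BL/6 background and were 8 weeks old when injections began. In the KO group (3 libraries) tamoxifen was given on 5 days to delete MCT2 (Slc16a7), a monocarboxylate transporter, and in the CO group (3 libraries) the same genotype received vehicle. Tamoxifen and the deletion therefore cannot be told apart. Cre acted in the whole animal and not in a chosen cell type, and the injected TC1 cells did not carry the floxed allele. The labels name the tissue as lung, although the tumors lay under the skin. The labels number the 3 libraries of a group without naming the animals, so p-values measure the spread between these samples, which may be partly technical.

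CD47 is a surface protein of almost all cells, tumor cells included. It binds SIRPα on macrophages, monocytes and dendritic cells and inhibits phagocytosis, for which it is called a "don't eat me" signal. Fc receptors for IgG act in the opposite direction: FcγRI (Fcgr1), FcγRIII (Fcgr3) and FcγRIV (Fcgr4) bind antibody on a target cell and signal through the shared FcRγ chain (Fcer1g), which carries an activating motif (ITAM), whereas FcγRIIB (Fcgr2b), PIR-B (Pirb) and LILRB4 (Lilrb4a) carry inhibitory motifs (ITIMs), as does SIRPα.

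The motifs that separate activating from inhibitory members are shown first, since the levels below are grouped by them. The coding bases come from GENCODE M21 transcripts on GRCm38 and are joined across introns. Capitals mark the codons that matched the motif pattern when the transcripts were translated. The ITAM pattern was a tyrosine and, 3 codons on, a leucine or isoleucine, repeated after 6 to 8 codons. The ITIM pattern was an isoleucine, valine, leucine or serine, any codon, a tyrosine, any 2 codons, and an isoleucine, leucine or valine.
Fcer1g ITAM, chr1:171229883-171230078, minus strand, codons 63 to 81 of 86: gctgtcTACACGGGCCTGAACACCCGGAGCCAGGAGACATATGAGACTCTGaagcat
Fcgr2b ITIM, chr1:170961065-170961094, minus strand, codons 315 to 324 of 340: aatacgATCACCTACTCACTTCTCaagcat
Sirpa ITIMs, chr2:129629948-129630172, plus strand, codons 436 to 510 of 513: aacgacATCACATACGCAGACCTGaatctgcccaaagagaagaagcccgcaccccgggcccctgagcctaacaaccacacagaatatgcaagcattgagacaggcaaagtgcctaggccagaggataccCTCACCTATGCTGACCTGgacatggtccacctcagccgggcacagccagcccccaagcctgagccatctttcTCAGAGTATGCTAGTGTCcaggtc
Pirb ITIMs, chr7:3712690-3712809, minus strand, codons 790 to 829 of 841: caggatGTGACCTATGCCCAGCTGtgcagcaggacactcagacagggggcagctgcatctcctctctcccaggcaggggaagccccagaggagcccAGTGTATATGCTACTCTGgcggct
Fcer1g was the only member with an ITAM match in its last 120 codons. ITIM matches there numbered 1 in Fcgr2b, 3 in Sirpa, 2 in Pirb and 2 in Lilrb4a. The looser ITIM pattern also matched 2 times in Fcgr1, 1 time in Fcgr4 and 1 time in Fcer1g, so a match alone does not make a working motif. Cd47 and Fcgr3 had no match.

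The stretches upstream of the start sites also differed between Cd47 and the receptors. They are shown because Cd47 RNA was found in every class of nuclei and Fc receptor RNA mainly in myeloid nuclei. RefSeq promoters (build GRCm38.p6) were at hand for 7 of the 9 genes, not for Sirpa and Lilrb4a. The 250 bases before the start are given, with each CG in capitals for Cd47 and each GAGGAAG or its complement CTTCCTC, a core of sites for the myeloid factor PU.1, in capitals for the receptors.
Cd47, chr16:49855404-49855653, plus strand: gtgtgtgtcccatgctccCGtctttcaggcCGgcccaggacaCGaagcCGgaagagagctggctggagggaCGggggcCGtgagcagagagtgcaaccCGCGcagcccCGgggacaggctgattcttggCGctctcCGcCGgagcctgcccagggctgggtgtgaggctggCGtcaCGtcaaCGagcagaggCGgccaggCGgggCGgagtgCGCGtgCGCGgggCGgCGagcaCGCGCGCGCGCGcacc
Fcgr1, chr3:96293970-96294219, minus strand: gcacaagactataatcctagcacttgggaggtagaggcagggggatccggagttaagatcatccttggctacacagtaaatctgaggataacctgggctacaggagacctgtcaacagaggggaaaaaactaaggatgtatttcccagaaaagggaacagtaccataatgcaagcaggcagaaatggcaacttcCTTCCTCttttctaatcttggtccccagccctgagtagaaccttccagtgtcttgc
Fcgr4, chr1:171018676-171018925, plus strand: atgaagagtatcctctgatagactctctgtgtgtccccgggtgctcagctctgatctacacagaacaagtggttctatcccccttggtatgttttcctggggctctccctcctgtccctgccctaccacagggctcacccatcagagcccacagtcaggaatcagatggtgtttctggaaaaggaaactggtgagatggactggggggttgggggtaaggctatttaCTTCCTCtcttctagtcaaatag
The Cd47 stretch held 30 CG pairs, and 94.8% of 32851 promoters held as many or fewer. The receptors held 1 CG pair in Fcgr1, Fcgr4 and Pirb, 3 or 4 at the 2 starts of Fcgr3, and 5 in Fcgr2b and Fcer1g, beside a median of 6 over all promoters. GAGGAAG was found on either strand in Fcgr1, Fcgr3, Fcgr4 and Pirb and not in Fcgr2b, Fcer1g or Cd47, and 10.6% of all promoters held it. These are matches of letters and not measured sites.

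After filtering, 17534 of 18865 nuclei were kept, 1764 to 4594 per library, with a median of 1095 to 4887 UMIs (counted RNA molecules) per nucleus. The genes lie on 6 chromosomes of GRCm38, and Fcgr2b (chr1:170958617-170976547), Fcgr4 (chr1:171018920-171029761), Fcgr3 (chr1:171051174-171064935) and Fcer1g (chr1:171229572-171234365) are neighbors on chromosome 1. Clusters of nuclei were named from marker genes, without the 9 genes. Tumor-like nuclei numbered 9080, macrophage-like 5290, monocyte-like 760, dendritic-like 151 and T/NK-like 610. The tumor-like name rests on markers that include Mecom, Slit2, Tnc and Col12a1. The paper named clusters with Pde10a and Frmd5 fibroblasts, and ones with Rsad2 and Ifit1 interferon-responsive mesenchymal stromal cells. It states that telling injected TC1 cells from host stroma for certain would need lineage-tracing or copy-number analyses. Monocyte-like nuclei also carried the 12 macrophage markers at a summed 2523 to 4685 CPM (UMI counts scaled to a common total in each class and library). Their 10 monocyte markers summed to 1359 to 4842 CPM. That sum was below the macrophage marker sum in CO 1, CO 3, KO 2 and KO 3 and above it in CO 2 and KO 1. They formed cluster 5, led by Slfn4, Ms4a4c and Ccr2 but also by Slfn1, Gbp5, Ifi213, Slfn5, Ifi209 and Ifi206. Macrophage-like nuclei carried the macrophage markers at 3210 to 4944 CPM. In tumor-like nuclei the tumor markers summed to 12554 to 24461 CPM and the 8 host fibroblast markers to 559 to 1238 CPM. The marker counts of each single nucleus placed only 29.2% of monocyte-like nuclei in the same class. That share was 39.7% for dendritic-like, 66.5% for macrophage-like and 99.1% for tumor-like nuclei. By these counts macrophage-like nuclei numbered 714, 930 and 410 in CO 1 to CO 3 and 1194, 128 and 576 in KO 1 to KO 3. By cluster they numbered 737, 985 and 535 in CO libraries and 1327, 347 and 1359 in KO. Barcode sequences found in more than 1 library numbered 61, and 48 were among kept nuclei, so the tests were also run without them. Over all nuclei Slc16a7 RNA did not separate the groups, at 8.64 to 21.2 CPM in CO libraries and 6.96 to 31.6 CPM in KO libraries. Tumor-like nuclei held 64.9% to 89.0% of all UMIs, and TC1 cells lacked the floxed allele, so these values cannot decide a deletion in host cells. Slc16a7 was not examined in host classes, and the groups are used as labelled. KO 2 had the smallest macrophage-like share (17.8% of nuclei, against 24.8% to 40.8% elsewhere) and only 35 monocyte-like nuclei, and KO 3 had the lowest median depth. KO 1 decided the number of genes called between KO and CO, and values without it are given below. Free RNA outside nuclei was reduced by washes in some samples, which ones is not stated.

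Cd47, the ligand, was found in every class, and its CPM was lower in tumor-like than in macrophage-like and monocyte-like nuclei. In tumor-like nuclei it stood at 207, 207 and 193 CPM in CO 1, CO 2 and CO 3 and at 206, 191 and 193 CPM in KO 1, KO 2 and KO 3. The 6 libraries spanned 191 to 207 CPM, and the groups overlapped. In macrophage-like nuclei it stood at 299, 284 and 349 CPM in CO libraries and 289, 346 and 366 CPM in KO. The macrophage-like level was above the tumor-like level in 6 of 6 libraries, 1.37 to 1.90 times as high. Monocyte-like nuclei had 404 to 549 CPM, again above macrophage-like nuclei of the same library in 6 of 6, with a ratio of 1.24 to 1.61. The T/NK-like level (379 to 545 CPM) and the dendritic-like level (181 to 831 CPM, from 95 UMIs, and below the tumor-like level in CO 1) overlapped with the monocyte-like level, so these 3 classes could not be ordered.

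Per nucleus, tumor-like nuclei held more Cd47 UMIs than macrophage-like or monocyte-like nuclei. They were also deeper, with a median of 4768.5 UMIs against 1065.5 in macrophage-like nuclei. Tumor-like nuclei held 1.05 to 1.97 Cd47 UMIs on average, macrophage-like nuclei 0.340 to 0.471 and monocyte-like nuclei 0.486 to 0.771. Tumor-like nuclei carried 12310 of all 17383 Cd47 UMIs, or 70.8%, macrophage-like nuclei 12.2% and monocyte-like nuclei 2.44%. At least 1 Cd47 UMI was found in 46.3% to 68.6% of tumor-like nuclei. With each nucleus thinned to 1000 UMIs, the share was 15.8% to 20% in tumor-like, 23.7% to 32.8% in macrophage-like and 20% to 37.3% in monocyte-like nuclei. Thinning left out 188 to 623 macrophage-like and 29 to 543 tumor-like nuclei per library that were shallower. The share in macrophage-like nuclei before thinning was 28.9% to 35.3%.

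Across the 7 tumor-like clusters the pooled Cd47 level spanned 178 to 247 CPM. The lowest was in cluster 0, with 167 to 193 CPM over the libraries, and the highest pooled level was in cluster 10, led by Crabp1 and Msln, with 223 to 257 CPM. Those 2 ranges did not overlap. Within single libraries cluster 10 was the highest of the 7 in CO 1 and CO 2, cluster 12 in CO 3 (290 CPM), cluster 4 in KO 1 (283 CPM) and KO 2 (223 CPM in both clusters 4 and 10), and cluster 2 in KO 3 (338 CPM). The CO 3 value of cluster 12 came from 20 UMIs in 15 nuclei. Cluster 2 spanned 175 to 338 CPM over the libraries. Its KO 3 nuclei also held Fcer1g at 188 CPM and Sirpa at 147.5 CPM. In the other libraries cluster 2 held 15.0 to 65.7 CPM of Fcer1g and 41.1 to 71.4 CPM of Sirpa. The source of this RNA in KO 3 was not tested, so its 338 CPM may not be a tumor level alone. Cluster 6, led by the interferon response genes Rsad2 and Ifit1, held 222 CPM. The macrophage-like clusters 1 and 3 held 311 and 339 CPM. The highest pooled level of any cluster, 544 CPM, was in the 55 plasmacytoid dendritic-like nuclei of cluster 19, from 55 UMIs.

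Sirpa, the receptor of CD47, was higher in macrophage-like than in monocyte-like nuclei in 5 of 6 libraries, all but KO 2, with overlapping ranges. In macrophage-like nuclei it stood at 538, 638 and 575 CPM in CO 1 to CO 3 and at 603, 624 and 621 CPM in KO 1 to KO 3, and the groups overlapped. Macrophage-like nuclei carried 48.0% of the 8346 Sirpa UMIs. The macrophage-like level was 10.0 to 14.9 times the tumor-like level, which was 40.4 to 62.0 CPM. Cluster 1, the larger macrophage-like cluster with Mrc1 among its leading genes, held 579 to 712 CPM, and cluster 3 held 434 to 559 CPM, so the library ranges of the 2 did not overlap. Cluster 3 was led by H2-Ab1, H2-Eb1, Cd74 and H2-Aa, with no macrophage marker among its leading genes. It was also shallower, with a median of 790.5 UMIs against 1373 in cluster 1. In monocyte-like nuclei Sirpa stood at 339, 302 and 411 CPM in CO libraries and 497, 692 and 492 CPM in KO. Every KO value was above every CO value there.

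Dendritic-like nuclei held 42 Sirpa UMIs in all, or 36.1 to 409 CPM over the libraries. Tumor markers summed to 628 to 6320 CPM in these nuclei. That was above their dendritic markers in CO 1 (6320 against 1661 CPM), CO 3, KO 2 and KO 3, and below in CO 2 and KO 1. The part of tumor RNA in the dendritic-like levels of Sirpa, Cd47 and the other members was not tested. Both dendritic-like clusters had Sirpa, at 248 CPM pooled in cluster 16 and 159 CPM in cluster 20, the latter from 9 UMIs. Plasmacytoid dendritic-like nuclei held 198 CPM. After thinning, a Sirpa UMI was found in 39.0% to 46.2% of macrophage-like nuclei (43.4% to 46.3% before thinning), against 4.13% to 7.58% of tumor-like and 0% to 11.3% of T/NK-like nuclei. A Sirpa and a Cd47 UMI in the same nucleus were found in 10.4% to 13.4% of thinned macrophage-like nuclei.

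**Figure D1:**
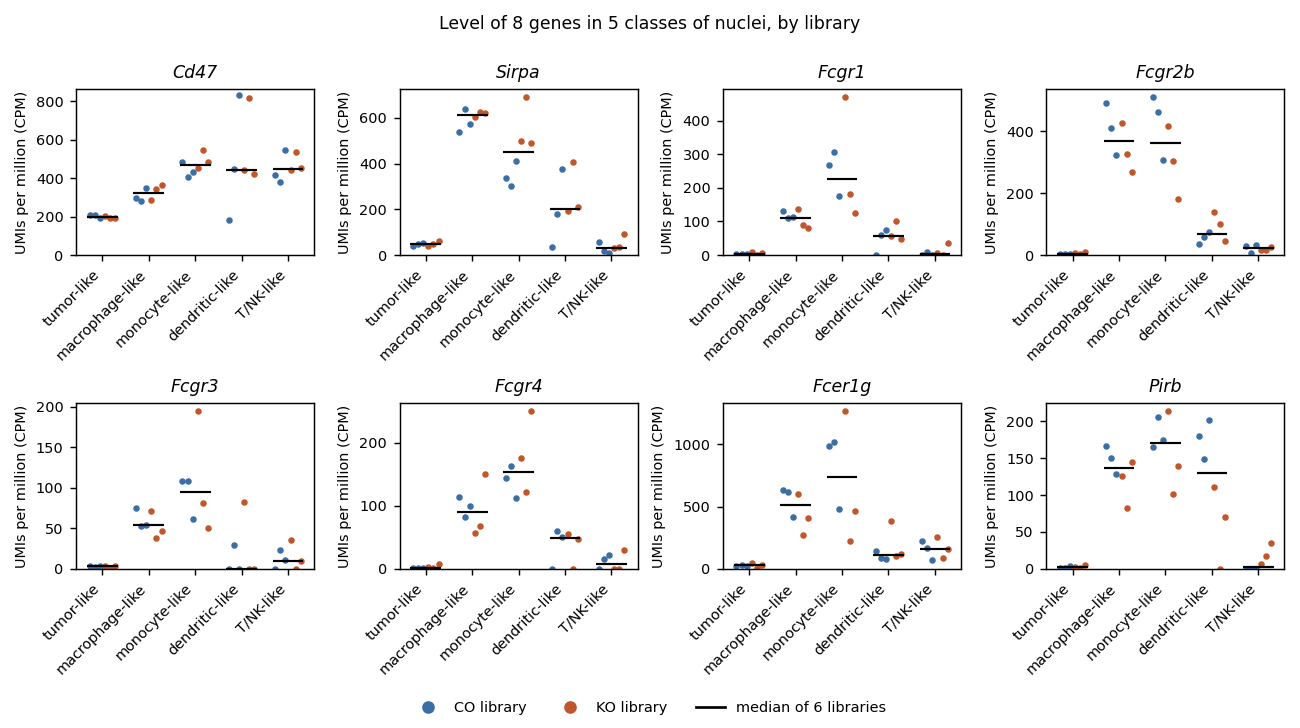
CPM (y axis, linear, from 0) of 8 genes in 5 classes of nuclei (x axis), with 1 point per library (CO blue, KO orange) and the median as a line. Cd47 was present in all 5 classes, with 191 to 207 CPM in tumor-like nuclei, whereas Fc receptors and Pirb lay between 0.804 and 8.54 CPM there and Fcer1g between 7.89 and 44.2 CPM.

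The activating receptor Fcgr1, the high-affinity IgG receptor, had its highest median level in monocyte-like nuclei. It stood at 267, 308 and 175 CPM in CO libraries and 470, 183 and 125 CPM in KO monocyte-like nuclei. In macrophage-like nuclei the values were 132, 110 and 114 CPM in CO libraries and 138, 88.8 and 81.4 CPM in KO. The monocyte-like level was above the macrophage-like level in 6 of 6 libraries, 1.54 to 3.42 times as high, although the ranges over libraries overlapped. The monocyte-like value of KO 2 came from 9 UMIs.

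Fcgr3, a low-affinity receptor for IgG complexes, gave 38.7 to 75.6 CPM in macrophage-like nuclei and 51.0 to 195 CPM in monocyte-like nuclei. Fcgr4, a receptor for IgG2a and IgG2b, gave 57.6 to 151 CPM and 113 to 250 CPM. Both were above macrophage-like nuclei of the same library in 6 of 6 monocyte-like samples. The monocyte-like values of KO 2 came from 4 Fcgr3 and 6 Fcgr4 UMIs. The library KO 1 had the highest monocyte-like Fcgr1 and Fcgr3 of all 6 libraries and the lowest macrophage-like Fcgr4, and KO 3 had the highest Fcgr4 in both classes, at 151 and 250 CPM.

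Fcer1g, the signalling chain these receptors share, gave 632, 615 and 418 CPM in CO libraries and 605, 273 and 411 CPM in KO macrophage-like nuclei. In monocyte-like nuclei it gave 987, 1019 and 483 CPM in CO libraries and 1269, 224 and 464 CPM in KO. KO 2 was the lowest library in both classes. Fcer1g UMIs in T/NK-like nuclei came to 74.8 to 259 CPM, and those in the shallow, unnamed cluster 8 to 69.2 to 308 CPM, so the T/NK-like level did not stand above that cluster.

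The inhibitory Fcgr2b was at like levels in macrophage-like nuclei (269 to 493 CPM) and monocyte-like nuclei (181 to 511 CPM). Macrophage-like nuclei carried 69.8% of its 3564 UMIs. It was lower in dendritic-like nuclei, at 36.1 to 138 CPM from 14 UMIs, and those 6 values lay below all monocyte-like values. UMIs of Fcgr1, Fcgr3 and Fcgr4 together numbered 0.596 to 1.04 per Fcgr2b UMI in macrophage-like nuclei and 1.01 to 2.36 in monocyte-like nuclei. The ratio was higher in monocyte-like nuclei in each library. Since these are counts and not levels per length, only the change of the ratio between classes is compared. In macrophage-like nuclei the highest ratio was in KO 3 (1.04), and the other 5 libraries lay between 0.596 and 0.825.

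Pirb, an inhibitory receptor for MHC class I, was shared by all 3 myeloid classes. It gave 166, 149 and 129 CPM in CO libraries and 125, 82.0 and 144 CPM in KO macrophage-like nuclei. Monocyte-like nuclei gave 102 to 214 CPM and dendritic-like nuclei 0 to 202 CPM, from 25 UMIs. Those ranges overlapped. Its reads can be shared with the nearly identical Pira genes, so its level is uncertain to that extent.

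Lilrb4a was listed at 0 in every library and class. Over the 5290 macrophage-like nuclei a count of 0 allows up to 0.451 CPM (3 counts), a limit that covers counting error only. Lilrb4a lies at chr10:51490956-51496611 on the plus strand of GRCm38. The read-through gene Gm49339, at chr10:51480612-51496613 on the same strand, is in the gene list too and shares all of the last 500 exon bases of Lilrb4a, the end that 3′ libraries read. Lilr4b, a paralog, was also at 0. Gm49339 itself had 31 UMIs in all, of which 26 were in macrophage-like nuclei. Whether the shared bases decided the 0 was not tested, and Lilrb4a is not described further.

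**Figure D2:**
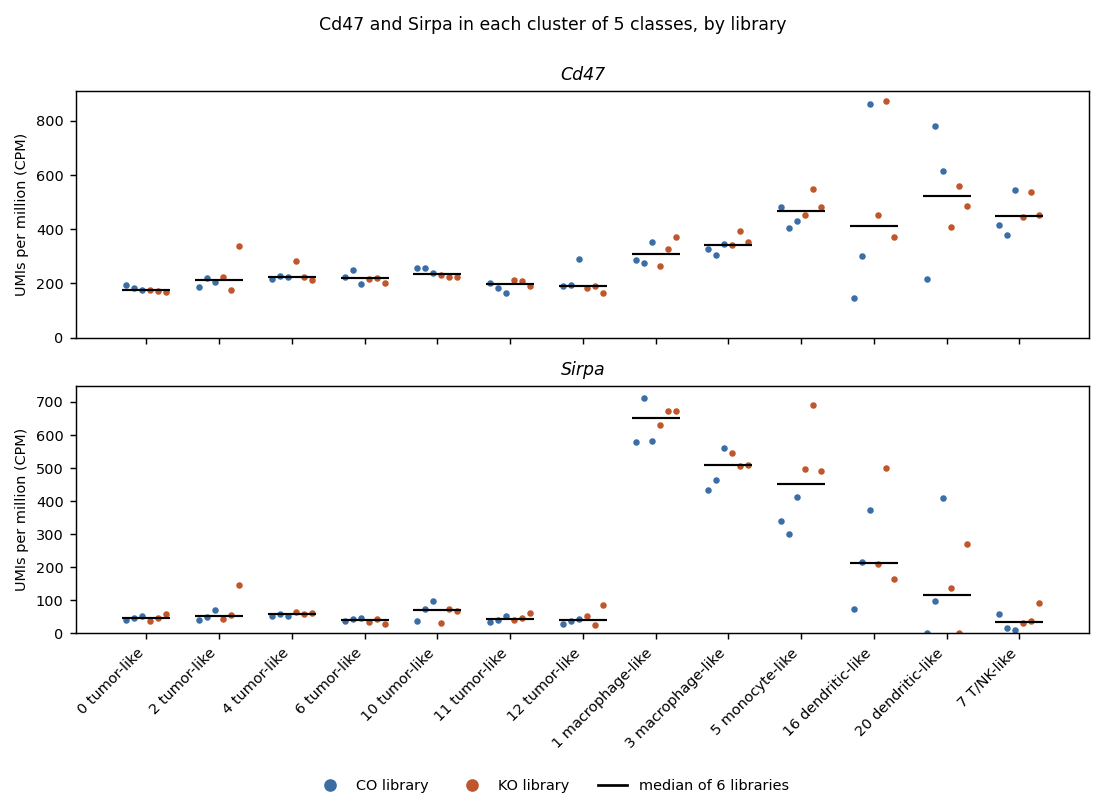
CPM of Cd47 (top) and Sirpa (bottom) by cluster (x axis, cluster number and class), with 1 point per library and the median as a line. Cd47 lay between 178 and 247 CPM (pooled) in the 7 tumor-like clusters, and Sirpa was higher in macrophage-like cluster 1 than in cluster 3 in library ranges that did not overlap.

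Receptor RNA in tumor-like nuclei was low and was set against the same measure for macrophage markers. Whether tumor cells lack these markers was not tested. The tumor-like level was 1.10% of the macrophage-like level for Fcgr2b (median of 6 libraries), 1.96% for Pirb, 2.26% for Fcgr4, 3.25% for Fcgr1, 5.14% for Fcgr3, 5.52% for Fcer1g and 7.73% for Sirpa. Over 11 macrophage markers the median lay between 0.587% (Stab1) and 9.78% (Trem2), except for Mertk at 52.3%. The medians of these 7 genes lay within the span of the macrophage markers other than Mertk. In KO 2, Sirpa was at 7.71%, above all of these markers but Mertk (the next highest was Trem2, at 4.55%). Over the 6 libraries pooled, tumor-like nuclei carried 34.9% of all Sirpa UMIs. The source of receptor UMIs in tumor-like nuclei was not tested. Cd47, at 62.2% (52.7% to 73.2% over the libraries), lay above that span, and above the median of Mertk. The range of Mertk, 45.9% to 63.5%, overlapped with that of Cd47. In KO 2 Mertk was above Cd47 (63.5% against 55.2%), and in the other libraries it was below. At least 1 UMI of Sirpa was found in 17.2% to 33.2% of tumor-like nuclei before thinning, and of Fcgr3 in 0.826% to 2.26%.

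**Figure D3:**
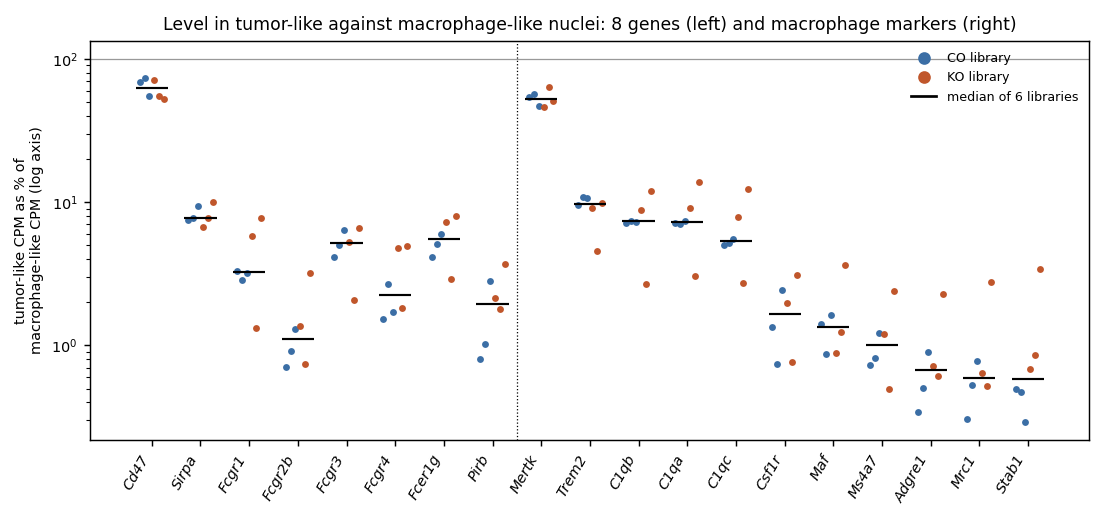
Level in tumor-like nuclei as a percentage of the level in macrophage-like nuclei (y axis, log scale) for 8 genes (left of the dotted line) and 11 macrophage markers (right), with 1 point per library and the median as a line. Sirpa and the Fc receptors had medians of 1.10% to 7.73%, and Cd47 had 62.2%.

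Over all nuclei of a library, fewer nuclei of a class and less RNA per nucleus cannot be told apart at that level. Cd47 spanned 201 to 233 CPM. Sirpa stood at 79.9, 113 and 115 CPM in CO libraries and 106, 69.4 and 164 CPM in KO. Fcer1g stood at 84.1, 105 and 74.9 CPM in CO libraries and 125, 18.3 and 108 CPM in KO. KO 2, the library with the smallest macrophage-like share, had the lowest level of all 8 detected members, and KO 3, with the largest share, had the highest Cd47, Sirpa, Fcgr4 and Pirb.

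The genes most like each member were sought over 21 clusters, by the Pearson correlation of log2(CPM + 1) among 10683 genes with at least 500 UMIs. The clusters share the same 6 libraries, and these correlations are a description with no test. Cd47 was most like M6pr (r = 0.89), Pigx (0.89) and Ndufv3 (0.87), and Sirpa was like Csf3r (0.95) and Lrrc25 (0.94). Closest to Fcgr1 were Tmem150b, Ccr1 and Dok3 (0.96 each), to Fcgr2b Clec4n, Lst1 and Ms4a6c (0.98 each), to Fcgr3 Csf1r (0.98), Cd300c2 (0.97) and Clec4n (0.96), and to Fcgr4 Cxcl16 (0.95) and Fcer1g (0.94). Fcer1g was most like Acp5 (0.96), Apoe (0.96) and C1qa (0.95), and Pirb was most like Zmynd15 (0.97), Irf5 (0.97) and Fgd2 (0.96). Among the members, Fcgr2b and Fcgr3 were alike (0.94), as were Fcgr4 and Fcer1g (0.94) and Sirpa and Pirb (0.92). Cd47 and Fcgr1 had the lowest value, 0.48. Each cluster counted equally whatever its size, and Fcgr1 had 0 UMIs in clusters 17 (64 nuclei) and 20 (46 nuclei).

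KO was then compared with CO within each class, to ask whether host treatment went with a change of ligand or receptors. Cd47 in tumor-like nuclei differed by 0.02 on the log2 scale (SE 0.15, adjusted p = 0.938, edgeR quasi-likelihood test), with a 95% interval of -0.32 to 0.37. The interval excludes a change of the size counted as a call, which was a log2 fold change of at least 0.58 in either direction at an adjusted p of at most 0.05. Cd47 in macrophage-like nuclei differed by 0.12 (SE 0.21, adjusted p = 0.880) and in monocyte-like nuclei by 0.15 (SE 0.29, adjusted p = 0.996). In tumor-like nuclei 0% of 12847 genes were called, 907 had an unadjusted p under 0.05, and the groups of 12.8% did not overlap, none of them a member. Sirpa differed by 0.14 in tumor-like nuclei (SE 0.21, adjusted p = 0.739) and by 0.09 in macrophage-like nuclei (SE 0.20, adjusted p = 0.898).

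The other 6 members tested in tumor-like nuclei had low levels there, 0.804 to 44.2 CPM. Their estimates ran from -0.25 (Fcgr3, SE 0.51) to 1.00 (Fcgr4, SE 0.62, adjusted p = 0.572, edgeR), and the Fcgr4 level was 7.44 CPM in KO 3 and 1.24 to 2.75 CPM in the other 5 libraries. The median over the 8 members tested was 0.31, beside -0.02 over all genes.

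In macrophage-like nuclei 8 members were tested, all but Lilrb4a, and none was called, as none was among all 9726 genes (0% called, 563 genes at an unadjusted p under 0.05). The estimates of Fcgr1, Fcgr2b, Fcgr3, Fcgr4, Fcer1g and Pirb were all below 0, between -0.35 and -0.04, and the CO and KO values of all 8 members overlapped (11.9% of all genes had no overlap). The lowest was Fcer1g, at 555 ± 119 CPM over the CO and 430 ± 166 CPM over the KO libraries (SD, n = 3), and -0.35 on the log2 scale (SE 0.30, adjusted p = 0.794, edgeR) with a 95% interval of -1.01 to 0.32. Fcgr2b was 409 ± 84.7 CPM over the CO and 340 ± 79.7 CPM over the KO libraries (SD, n = 3), with -0.25 (SE 0.24, adjusted p = 0.803, edgeR). Pirb was 148 ± 18.6 CPM and 117 ± 32.0 CPM (SD, n = 3), with -0.29 (SE 0.23, adjusted p = 0.793, edgeR). The median over the 8 members was -0.18, beside -0.0014 over all genes tested. RNA of tumor markers in macrophage-like nuclei also differed between libraries. The 12 tumor markers, all detected in every library, summed to 822 to 1610 CPM in CO libraries and 940 to 3598 CPM in KO macrophage-like nuclei, with KO 2 and KO 3 highest, and the macrophage markers summed to 4419 to 4845 CPM and 3210 to 4944 CPM. Their part in these differences was not tested.

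In monocyte-like nuclei none of the 8 members was called, again as none of 3710 genes was (0%, 113 genes at an unadjusted p under 0.05). Sirpa had the largest estimate and was the only member whose groups did not overlap, as in 9.3% of all genes there. It was 350 ± 55.7 CPM over the CO and 560 ± 114 CPM over the KO libraries (SD, n = 3), which is 0.65 on the log2 scale (SE 0.31, adjusted p = 0.996, edgeR, unadjusted p = 0.0554) with a 95% interval of -0.02 to 1.32. The share of thinned nuclei with a Sirpa UMI was 22.9% to 27.9% in CO and 37.3% to 41.2% in KO. The thinned nuclei numbered only 20 in KO 2 and 43 in CO 3, and the KO 2 level of 692 CPM came from 34 UMIs in 35 nuclei. By the marker counts of each nucleus, KO 2 held 8 and KO 3 held 21 monocyte-like nuclei. Tumor markers summed to 700 to 1511 CPM in CO libraries and 898 to 4100 CPM in KO monocyte-like nuclei (8 to 12 of the 12 detected per library), and their part was not tested. Sirpa was at 40.4 to 62.0 CPM in tumor-like nuclei, below its monocyte-like level in every library. Fcgr2b had the lowest estimate, -0.51 (SE 0.38, adjusted p = 0.996, edgeR), and Fcgr4 was at 0.44 (SE 0.34), Fcgr3 at 0.31 (SE 0.51), Fcgr1 at 0.12 (SE 0.47), Pirb at -0.16 (SE 0.35) and Fcer1g at -0.27 (SE 0.53).

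The library KO 1 decided much of this. Without it, 18.7% of 9764 genes were called in macrophage-like, 6.41% of 3946 in monocyte-like and 18.9% of 12885 in tumor-like nuclei. The 18 member results followed were Cd47 and Sirpa in tumor-like nuclei and all members but Lilrb4a in the other tested classes. Of these, only Fcer1g in monocyte-like nuclei was called without KO 1, at -1.24 (adjusted p = 0.0433, edgeR). The KO 2 value there came from 11 UMIs in 35 nuclei. Fcer1g in macrophage-like nuclei was at -0.63 (adjusted p = 0.0556, edgeR). Without KO 1, Fcgr1 and Fcgr3 in monocyte-like nuclei stood at -0.96 and -0.83, against 0.12 and 0.31 with all libraries. Cd47 in tumor-like nuclei stayed at 0.02, and Sirpa in monocyte-like nuclei was at 0.62 (adjusted p = 0.186, edgeR).

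The wider pathway was read from 6 lists of 95 genes, of which 89 were in the gene list. The lists were chosen with earlier results of these data known. None of the 68 tested in macrophage-like, 45 in monocyte-like and 58 in tumor-like nuclei was called in either direction, where 0% of all genes were called. Groups did not overlap for 11 of the 68 in macrophage-like nuclei, 4 with KO above CO and 7 with KO below, beside the 11.9% of all genes given above. At an unadjusted p under 0.05 stood 3 of the 68 in macrophage-like nuclei, beside 563 of all 9726 genes. DESeq2 called 3 genes in macrophage-like, 0 in monocyte-like and 26 in tumor-like nuclei, none of them a member, and edgeR called 0 in each.

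Of the 24 genes of ITAM and Fc receptor signalling, 23 were tested in macrophage-like nuclei, with a median of -0.11. Cyth4, a guanine nucleotide exchange factor of leukocytes, was lowest, at -0.57 (SE 0.33), and Was, the actin regulator of the Wiskott-Aldrich syndrome, was at -0.43 (SE 0.26), with all KO values below all CO values. Src and Vav1, a kinase and an exchange factor downstream of receptors, were highest, at 0.29 (SE 0.35) and 0.25 (SE 0.26). Among 12 ITIM effectors the median was -0.20. Fyb, an adapter protein, was at -0.45 (SE 0.24), also without overlap, and Ptpn11, the phosphatase SHP-2 that binds ITIMs, was at 65.9, 47.8 and 59.5 CPM in KO and at 79.8, 86.5 and 74.8 CPM in CO, a log2 fold change of -0.44 (SE 0.20, adjusted p = 0.786, edgeR). The KO values of Ptpn11 lay below all CO values. Ptk2b and Skap2, a kinase and an adapter, were highest, at 0.23 and 0.18.

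Among CD47-SIRP partners, Sirpb1c, an activating paralog of Sirpa whose reads may be shared with its near copies, stood at 96.6, 103 and 76.2 CPM in CO libraries and 152, 146 and 116 CPM in KO macrophage-like nuclei, with no overlap, and at a log2 fold change of 0.59 (SE 0.21, adjusted p = 0.786, edgeR). Thbs1, a matrix ligand of CD47, was at 0.67 (SE 0.39), Sirpb1a at -0.29 (SE 0.43) and Gm9733 at -0.81 (SE 0.52). In tumor-like nuclei Thbs1 was at 0.02 (SE 0.37), Calr, the "eat me" signal calreticulin, at -0.49 (SE 0.62), and Qpctl, the enzyme that modifies CD47 for SIRPα binding, at -0.53 (SE 0.26).

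Among other phagocytosis checkpoints, Lrp1, the phagocytic receptor for calreticulin, had the highest estimate in macrophage-like nuclei, at 92.4, 92.1 and 133 CPM in CO libraries and 227, 178 and 142 CPM in KO, and 0.80 on the log2 scale (SE 0.25, adjusted p = 0.786, edgeR). Cd200r1, an inhibitory receptor, was at 0.75 (SE 0.27, adjusted p = 0.786, edgeR), and both had KO values above all CO values. Siglece and Cd300lf, inhibitory receptors, were lowest, at -0.53 (SE 0.38) and -0.26 (SE 0.23). Among ligands and relatives of the paired receptors, Rtn4, a ligand of PIR-B, was at 0.35 (SE 0.21) without overlap, Pira2 at 0.22 (SE 0.38), Lilra5 at -0.23 (SE 0.22) and Apoe, a ligand of LILRB4, at -0.58 (SE 0.53). Among other antibody receptors and antibody genes, 6 of 18 were tested, and Fcrla, Ighm, Trim21 and Fcrls stood at 0.55, 0.30, -0.24 and -0.26, with SEs of 0.44 to 0.57.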

How the data were processed

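Per the labels and the study's methods, nuclei of 6 frozen tumors were sequenced with 10x 3′ chemistry and the authors counted UMIs per gene with Cell Ranger on GRCm38 (version 3.0.2 in the methods, whereas the file headers name a later one). Whether introns were counted is not given in the sources used here. The deposited matrices hold whole, unnormalized counts, so the free-RNA correction named in the methods is not visible in them. Nuclei with 100 to 7500 genes and under 20% mitochondrial UMIs were kept, 480 doublets were removed, and 30 principal components were integrated with Harmony and clustered with Leiden (resolution 1.0, 21 clusters), without the 9 genes. Clusters were named from markers. Counts were summed per class and library and tested with edgeR 4.0.16 (quasi-likelihood, TMM, low-count filter, R 4.3.3) with Benjamini-Hochberg adjustment, with at least 20 nuclei per library, which left out dendritic-like nuclei. Alternatives included DESeq2 1.42.0. The scripts were tested on simulated counts with known changes. Of 100 genes changed 2-fold, 10% were called in tumor-like, 14% in macrophage-like and 15% in monocyte-like nuclei. Of 100 genes changed 4-fold, 71%, 80% and 75% were called. A lack of calls alone therefore does not exclude changes of 2-fold. Total counts were 13252572 to 22057084 per library. No 2 libraries of a group agreed within sampling noise. The members, gene lists and naming rule (the 2 highest and 2 lowest tested genes of each list in macrophage-like nuclei, and Thbs1, Calr and Qpctl in tumor-like nuclei) were chosen with earlier results of these data known. Up to 3 genes most like each member over the clusters were named, and a few of these are not reported here.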

Additional observations from a re-analysis of the deposited data

How the results depend on the processing

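The number of genes called was 0 in all nuclei and in each class, and it stayed 0 except under these settings. DESeq2 called 12 in all nuclei, 26 in tumor-like and 3 in macrophage-like nuclei. Without the low-count filter 3 were called in macrophage-like and 15 in monocyte-like nuclei. Leaving out 1 library gave 0 to 2435 in tumor-like, 0 to 1829 in macrophage-like and 0 to 253 in monocyte-like nuclei, each highest value without KO 1, and the cause was not tested. Member estimates were followed under all alternatives for Cd47 and Sirpa in tumor-like nuclei and for 8 members in macrophage-like and monocyte-like nuclei. Of these, 234 kept their direction and their side of the threshold, 14 changed sign and 1 passed the threshold. The other members in tumor-like nuclei are not in this count. Mean levels under thinning, marker-count classes or removal of shared barcodes moved by less than the SD over libraries in 63 cases and by more in 9. Leaving out 1 library at a time, the estimates that changed sign ran from -0.0224 (without CO 3) to 0.0554 for Cd47 and from -0.0204 (without KO 3) to 0.29 for Sirpa in tumor-like nuclei, and from -0.66 (without KO 3) to 0.32 (without KO 1) for Fcgr4 in macrophage-like nuclei. In monocyte-like nuclei they ran from -0.96 (without KO 1) to 0.55 (without KO 3) for Fcgr1, from -0.83 to 0.81 without the same libraries for Fcgr3, from -1.24 (without KO 1) to 0.0841 (without KO 2) for Fcer1g, and from -0.59 (without KO 1) to 0.0258 (without KO 3) for Pirb. Among the other genes the span was -0.0053 to 0.42 for Src, -0.95 to 0.14 for Sirpb1a, -1.26 to 0.21 for Fcrls, -0.90 to 0.0936 for Trim21 and -0.20 to 0.81 for Ighm in macrophage-like nuclei, and -0.30 to 0.39 for Thbs1 in tumor-like nuclei. With nuclei thinned to 1000 UMIs, Fcgr4 in macrophage-like nuclei was at 0.11 and Cd47 in monocyte-like nuclei at -0.0799, and with classes set by the marker counts of each nucleus Trim21 was at 0.46. Without KO 1, Cyth4 (-1.005), Cd200r1 (1.01), Apoe (-1.53) and Fcrls (-1.26) in macrophage-like nuclei and Calr (-1.57) in tumor-like nuclei passed the threshold, as did Fcer1g in monocyte-like nuclei. Without the nuclei whose barcodes occur in more than 1 library, an alternative chosen after seeing the data, 0 genes were called in each class.

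Whether replicate numbers pair the libraries was not settled. Same-numbered CO and KO libraries deviated together at r = 0.50, -0.24 and 0.28 for numbers 1, 2 and 3 in tumor-like nuclei. The median mitochondrial share of UMIs was alike within a number. It was 6.76% in CO 1 and 6.24% in KO 1, and 3.98% in CO 2 and 3.83% in KO 2. In CO 3 and KO 3 it was 1.33% and 0.890%. With the replicate number as a block, 0 genes were called in each class, and Fcgr1 in monocyte-like nuclei was at -0.0228. In tumor-like nuclei 1699 genes then had an unadjusted p under 0.05 (edgeR), beside 907 without the block. Depth limits the monocyte-like class, where KO 2 held 35 nuclei, and the dendritic-like class, where KO 2 held 8.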
